A study of Mus musculus with 24 samples.

Results

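The comparison described here set the liver of wild-type C57BL/6 (B6) mice against the duodenum of the same strain, the first and most iron-absorbing stretch of the small intestine. Its members were the 3 arrays labelled Liver-B6WT and the 3 arrays labelled Duodenum-B6WT, 6 of the 24 arrays of the series, and every probe set was used. All mice of the series were males aged 7 weeks. The series also holds Hfe-/- mice and the strain DBA/2 (D2). Of these, 6 wild-type D2 arrays (3 of liver, 3 of duodenum) serve below as samples that the B6 comparison did not use. The Hfe-/- arrays of both strains enter only the alternative fits over all 24 arrays. The B6 and D2 wild-type mice carried no introduced allele and received no agent, and per the study's methods they were purchased and were fasted before they were killed. Nothing in the labels ties a liver array to a duodenum array of the same mouse, so the tissues were compared without pairing, and p-values measure the spread between these samples.

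Liver tissue is mostly hepatocytes, which secrete plasma proteins, break down amino acids, make glucose and bile acids and clear foreign compounds. Between them lie sinusoidal endothelial cells, Kupffer cells (the resident macrophages of liver) and stellate cells. Duodenum is a layered organ. Its absorptive enterocytes carry a brush border of microvilli with digestive enzymes and nutrient transporters, and goblet, Paneth and enteroendocrine cells, dividing crypt cells, lymphocytes, nerves and smooth muscle lie around them. Both organs meet in iron metabolism: enterocytes take up dietary iron, and hepatocytes secrete hepcidin, the peptide hormone that limits iron release into blood by acting on the exporter ferroportin. Hfe, the gene disrupted elsewhere in the series, encodes a protein related to MHC class I that takes part in setting hepcidin.

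Each array held 45037 probe sets of mouse transcripts on an Affymetrix whole-genome mouse expression array, with values that are MAS5 signals (brightness on a linear scale, each array scaled by the authors to a trimmed mean of 100). Arrays of 1 tissue were alike over the 16077 probe sets of mean signal of at least 50. Correlations were 0.969 to 0.970 among liver and 0.962 to 0.977 among duodenum arrays, against 0.301 to 0.308 between the tissues. The mean for this limit was taken over both tissues, so probe sets bright in 1 tissue and low in the other were kept. Such a limit favours differences between the tissues, and its part in the low between-tissue correlations was not tested. Because the scaling fixes only the mean, the median probe set lay at -0.16 on the log2 scale (liver minus duodenum). Signals below 20, near the array medians, were taken as too dim to give a fold change, so a fold against such a level is written "at least", after signals under 20 were set to 20. The B6 liver arrays were all run on fluidics station 1 and the B6 duodenum arrays all on station 2. Hybridization runs were set here from gaps in the recorded times and numbered in time order. The run was 1 for all B6 liver arrays and 2 for all B6 duodenum arrays. Within B6 the tissue, the station and the run therefore cannot be told apart. In D2 the liver arrays were in runs 1, 5 and 2 and the duodenum arrays all in run 3, so D2 does not separate tissue from run either. The D2 arrays did hold both tissues on each station: of the 2401 genes called at least 4-fold in B6, 2383 differed in the same direction between the D2 tissues on station 1 (2 arrays each) and 2371 on station 2 (1 array each), as differences of means with no test. The matching shares over all genes were not computed. Duodenum replicate 3 stood apart in the genes of pancreatic acinar cells, as given with that list.

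The cell type markers followed the tissue labels. Summed over 6 hepatocyte markers, the signal was 66981 to 75124 on the liver arrays and 3318 to 4300.0 on the duodenum arrays, and over 6 enterocyte markers it was 1897 to 2226 and 24228 to 29696. The summed goblet, Paneth, enteroendocrine, smooth muscle, B and plasma cell, T cell and pancreatic acinar markers, and bile duct markers that gut epithelium shares, were all higher on every duodenum array than on any liver array. The B and plasma cell sum on the duodenum arrays was mostly Jchain. Of its 5 markers 2 were called higher in duodenum, and Ms4a1 was under 20 on all duodenum arrays. The summed Kupffer, sinusoidal endothelial and stellate markers were higher on every liver array. So was the sum of the 2 blood markers, but by Alas2 alone, since Hba-a1 was under 20 on all 6 arrays. Over all single probe sets, the signals of the B6 tissues did not overlap for 21132 (46.9%). In whole tissue such as this, more cells of a type and more RNA per cell cannot be told apart, and this holds for every gene below.

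**Figure D1:**
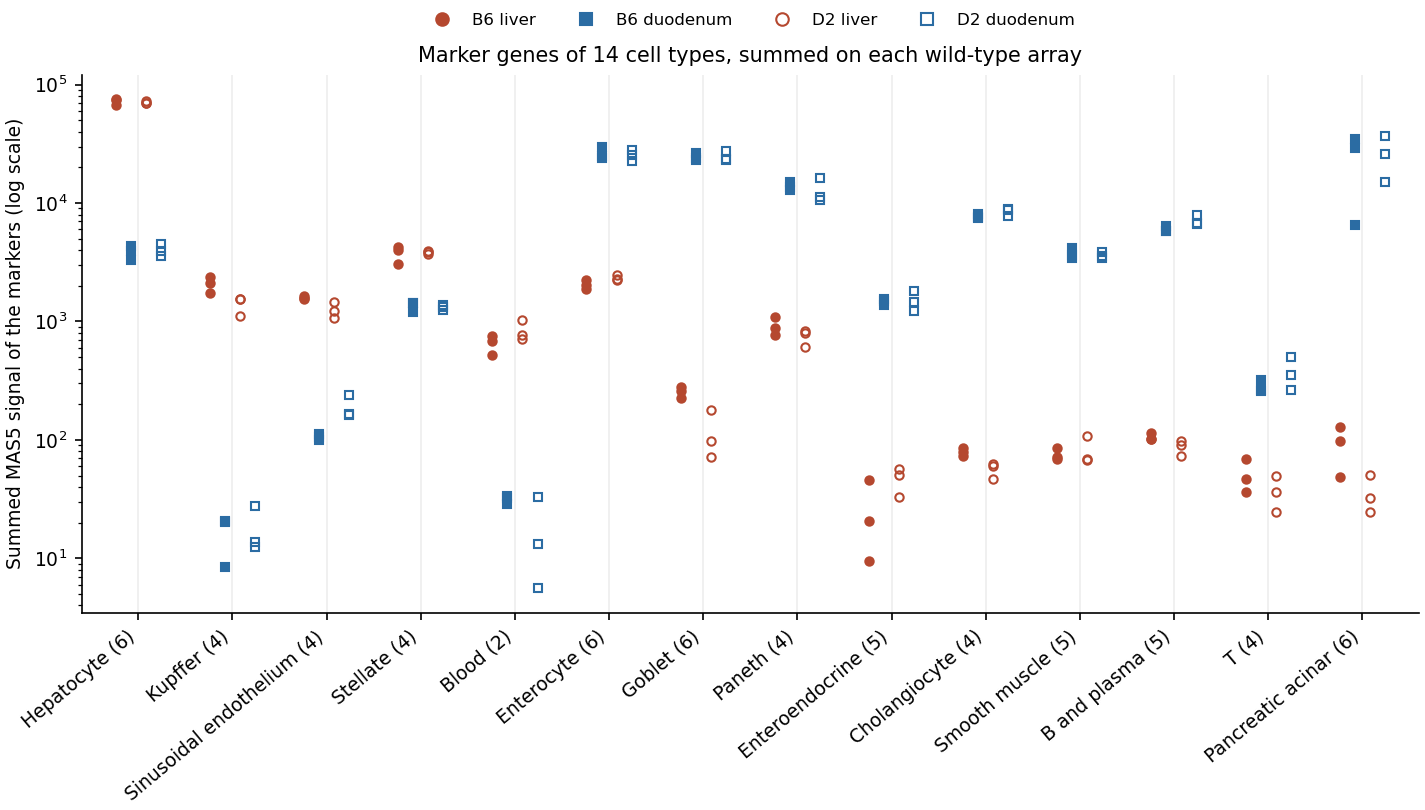
Summed MAS5 signal of the marker genes of 14 cell types (number of markers with a probe set in brackets) on each wild-type array, on a log axis; filled symbols are B6 and open symbols D2, circles liver and squares duodenum, and each symbol is 1 array. The tissues do not overlap for any of the 14 marker sets in B6, and 1 B6 duodenum array lies far below the other two for the pancreatic acinar markers (6504 against 29026 and 34807). Over all single probe sets, the B6 tissues do not overlap for 46.9%.

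Over all probe sets, 4591 (10.2%) were called higher in liver and 6488 (14.4%) higher in duodenum at an adjusted p of at most 0.01, so that 41.4% of the calls were on the liver side. That split depended on the scaling. When each array was centred on its median instead, 56.7% of the calls were on the liver side, and after quantile normalization it was 48.7%. Counts with a size limit were 1679 probe sets (3.73%) at least 4-fold higher in liver and 2743 (6.09%) at least 4-fold higher in duodenum. Taking each gene by its brightest probe set, 18193 genes were tested, of which 2614 (14.4%) were higher in liver and 3403 (18.7%) higher in duodenum, with 936 (5.14%) and 1465 (8.05%) at least 4-fold. The lower tissue was under 20 on all 3 arrays for 367 of those 936 genes and for 789 of those 1465, so the size of many of these differences has only a lower bound. With 3 arrays against 3, an exact permutation test of a single gene cannot go below 0.1, and all tests below therefore come from the limma fit across all probe sets.

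**Figure D2:**
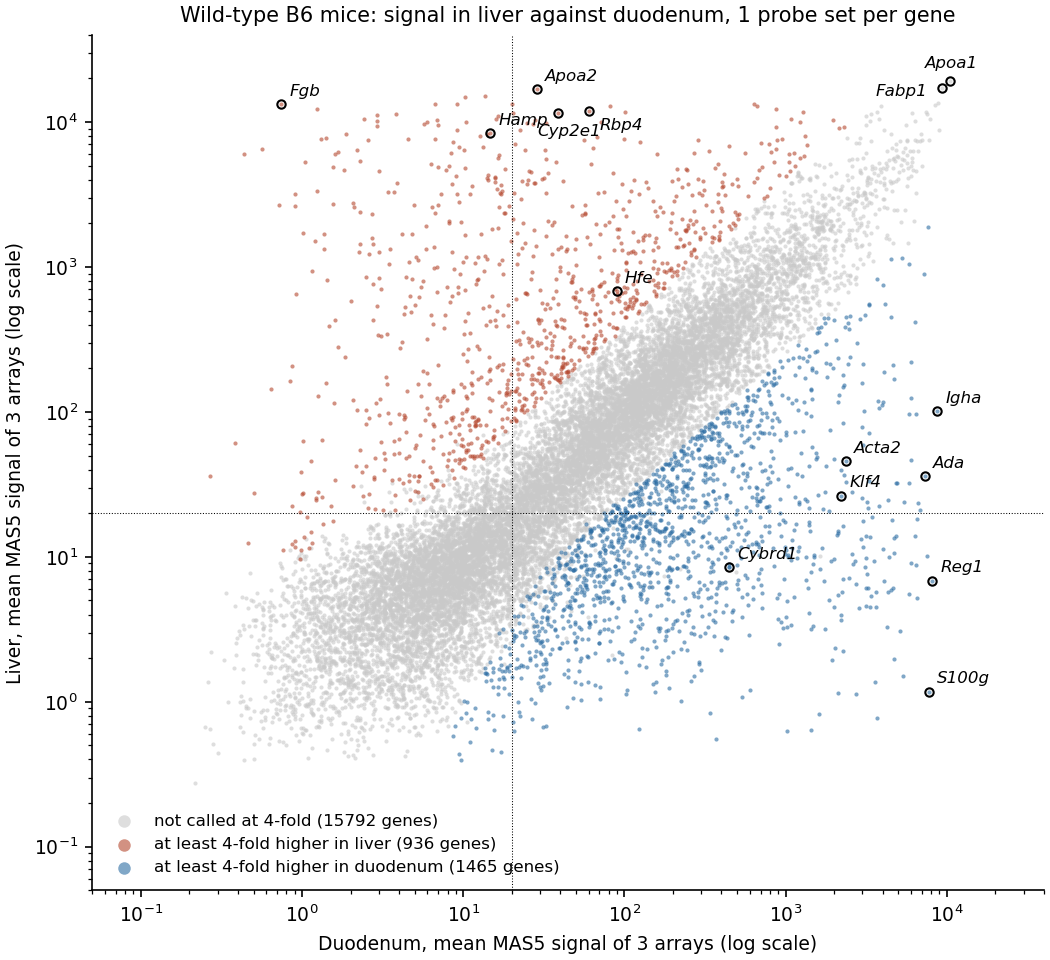
Mean MAS5 signal of the 3 liver arrays (vertical, log axis) against that of the 3 duodenum arrays (horizontal, log axis) of wild-type B6 mice, 1 point for each of 18193 genes, with genes called at least 4-fold in color and dotted lines at a signal of 20. The liver-high and duodenum-high genes form wings that reach below a signal of 20 in the other tissue, while Apoa1 and Fabp1 are bright in both.

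The proteins that hepatocytes release into plasma made up a liver group with no exception. All 21 measured genes of the plasma protein list were higher in liver, all at least 4-fold, with a median log2 difference of 9.36 (8.19 with dim signals set to 20) against -0.15 over all genes. Albumin, the main carrier protein of plasma, had signals of 14062, 13919 and 12139 on the liver arrays and 15.4, 5.57 and 6.37 on the duodenum arrays for Alb. It was thus near the top of the range in liver and under the dim limit in duodenum, at least 667-fold higher in liver (adjusted p = 2.8e-09). Ahsg (fetuin A, an inhibitor of calcification) read 12816, 13157 and 11203 in liver and 1.39, 0.96 and 1.38 in duodenum, at least 618-fold higher in liver (adjusted p = 3.2e-11). Apoa2, an apolipoprotein of high density lipoprotein, stayed measurable on both sides. Its signals were 17164, 18222 and 15058 in liver against 38, 21.8 and 26.4 in duodenum, a 599.7-fold difference (log2 difference 9.23, SE 0.18, adjusted p = 1.7e-10) that was the widest among genes bright enough on every array.

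All 20 measured genes of blood coagulation, all 15 of complement and all 12 of the acute phase list were also higher in liver. Of the acute phase genes, Orm3 was under 20 on all 6 arrays. The acute phase count was 11 with signals under 20 set to 20, and 10 to 12 when 1 array was left out. The 3 fibrinogen chains lie side by side on chromosome 3 and behaved alike. Fgb, the beta chain of the protein that forms the clot, gave 13755, 13985 and 12292 in liver and 0.639, 1.07 and 0.525 in duodenum, at least 666-fold higher in liver (adjusted p = 8.5e-11). Fgg gave 11660.2, 11664 and 10562 and 0.745, 10.2 and 0.587 (at least 564-fold, adjusted p = 1.1e-06), and Fga gave 8284, 8798 and 7715 and 0.236, 4.71 and 0.645 (at least 413-fold, adjusted p = 6.9e-07). C8g, a subunit of the complement attack complex, read 5005, 4513 and 4269 in liver and 20.5, 29.3 and 26.5 in duodenum, and this 182-fold difference (log2 difference 7.51, SE 0.14, adjusted p = 1.3e-10) was measured on both sides. Within the acute phase list the log2 differences ranged from 1.81 to 13.61.

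Because Alb and Fgb are the textbook cases of genes that hepatocytes transcribe at very high rates, their promoter windows are shown, each 250 bases before to 50 bases after the gene start. The sequences are RefSeq's on GRCm38.p6, and capitals mark the match to GTTAAT on either strand, the core letters bound by HNF1, a transcription factor of hepatocytes and enterocytes. The Alb window is chr5:90460620-90460919 on the plus strand with the match starting 32 bases before the gene start, and the Fgb window is chr3:83049814-83050113 on the minus strand with the match, on the strand opposite to the gene, starting 29 bases before it.
Alb: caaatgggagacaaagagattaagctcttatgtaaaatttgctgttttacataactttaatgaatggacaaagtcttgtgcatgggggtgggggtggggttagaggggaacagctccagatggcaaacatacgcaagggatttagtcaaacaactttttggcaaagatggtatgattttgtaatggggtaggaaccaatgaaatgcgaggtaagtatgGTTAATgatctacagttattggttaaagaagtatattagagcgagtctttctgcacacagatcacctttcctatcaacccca
Fgb: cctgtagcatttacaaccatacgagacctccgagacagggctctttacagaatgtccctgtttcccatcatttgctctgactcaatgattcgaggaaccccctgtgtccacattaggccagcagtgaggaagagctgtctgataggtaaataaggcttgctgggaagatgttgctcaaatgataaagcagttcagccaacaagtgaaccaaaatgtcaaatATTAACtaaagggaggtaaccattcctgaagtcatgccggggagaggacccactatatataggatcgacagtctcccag

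These letters were found on either strand in 9.73% of the 730 windows of genes at least 4-fold higher in liver, in 6.30% of the 1143 windows of genes at least 4-fold higher in duodenum, and in 5.06% of the 14452 windows of all genes with a probe set. For CAAAGT (or ACTTTG), core letters of HNF4 sites, the shares were 17.8%, 13.1% and 12.7%. For TGTTTAC (or GTAAACA), bound by FOXA factors, they were 4.25%, 3.15% and 2.82%, and for the palindrome TTGCAA, bound by C/EBP factors, 7.40%, 4.64% and 5.02%. Short motifs of this kind are more frequent where the GC content is low, and the median GC content of the windows was 56.0%, 59.0% and 58.7% in the same order. Its part in these shares was not tested. A match is a description of the letters and not of a bound site.

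Amino acid breakdown was another group with no exception: all 25 measured genes were higher in liver, each at least 4-fold, with a median log2 difference of 8.26. Hpd, the dioxygenase of tyrosine breakdown, read 12879, 14129 and 11709 in liver and 78.8, 69.5 and 95.8 in duodenum, 159.5-fold higher in liver (log2 difference 7.32, SE 0.12, adjusted p = 8.6e-11). The widest bound of any gene with a dim lower tissue belonged to Bhmt, which remethylates homocysteine with betaine: 14945, 15508 and 13896 in liver, 13.5, 8.12 and 9.01 in duodenum and at least 738-fold higher in liver (adjusted p = 7.4e-11).

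Urea cycle and arginine synthesis leaned to liver, including the cycle enzymes Cps1, Otc, Ass1, Asl and Arg1. Of 12 measured genes of urea cycle and arginine synthesis, 10 were higher in liver and 2 in duodenum. Arg1, the cytosolic arginase that releases urea, had signals of 11882, 11689.8 and 10916 in liver and 17.6, 22.1 and 21.5 in duodenum, at least 543-fold higher in liver (adjusted p = 2.7e-11). Its mitochondrial relative Arg2 had the reverse pattern, 10.6, 5.42 and 1.08 in liver and 4562, 4294 and 4094 in duodenum, at least 216-fold higher in duodenum (adjusted p = 7.3e-07). The other duodenal gene was Aldh18a1, the enzyme that opens the route from glutamate to proline and ornithine, with 11.3, 12.8 and 10.9 in liver and 1280.5, 1124 and 1225 in duodenum (at least 60.4-fold, adjusted p = 2.2e-10). Cps1 and Otc, the mitochondrial entry steps, were shared more evenly. Cps1 read 10969.9, 11675 and 10112 in liver and 2967, 3421 and 3042 in duodenum, 3.47-fold higher in liver (log2 difference 1.80, SE 0.09, adjusted p = 1.6e-07), and Otc was 3.63-fold higher in liver (log2 difference 1.86, SE 0.10, adjusted p = 1.6e-07) with duodenal signals of 1321, 1082 and 1115. Asl, which releases arginine in the cytosol, was 57.9-fold higher in liver (log2 difference 5.85, SE 0.09, adjusted p = 5.9e-11), and Ass1, the step before it, at 485, 368 and 419 in liver and 13.6, 17.8 and 12.6 in duodenum, was at least 21.1-fold higher (adjusted p = 2.2e-08).

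Of 15 genes of gluconeogenesis and glycogen, 13 were higher in liver, 1 in duodenum and 1 was not called. Duodenum held a part of the glucose-making pathway. Pck1, its committing enzyme, read 7236, 7267 and 6687 in liver and 606, 874 and 899.6 in duodenum (9.04-fold, log2 difference 3.18, SE 0.14, adjusted p = 5.2e-08), and G6pc, which frees glucose in the last step, read 3136, 2972 and 3242 and 326, 281 and 186 (12.1-fold, log2 difference 3.60, SE 0.17, adjusted p = 1.1e-07). Gys2, the liver form of glycogen synthase, was not shared in this way. It read 1111, 1380.2 and 1302 in liver and 0.602, 7.72 and 0.639 in duodenum, at least 63-fold higher in liver (adjusted p = 5.5e-06). Several enzymes exist as isozymes of different genes, and of 31 such genes measured 10 were higher in liver and 12 in duodenum. Fbp1, the liver form of fructose bisphosphatase, was 9.16-fold higher in liver (log2 difference 3.19, SE 0.09, adjusted p = 1.9e-09), with signals of 12169, 12459.6 and 10721 against 1243, 1263 and 1349. Fbp2, the form known from muscle, read 1.1, 6.44 and 5.89 in liver and 2239.6, 1736 and 2027 in duodenum, at least 99.5-fold higher in duodenum (adjusted p = 5.4e-07). Pkm, the pyruvate kinase of most tissues, read 38.7, 47.7 and 40.4 in liver and 2080.2, 1464 and 1786 in duodenum (41.8-fold, log2 difference -5.38, SE 0.14, adjusted p = 1.6e-09), and Pklr, the liver and red cell form, was also higher in duodenum, at 112, 104 and 103 against 394, 324 and 357 (3.36-fold, log2 difference -1.75, SE 0.12, adjusted p = 1.1e-06). Glul, glutamine synthetase, was 4.72-fold higher in liver (log2 difference 2.24, SE 0.22, adjusted p = 2.4e-05) with duodenal signals of 313, 569 and 653.

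All 13 measured genes of bile acid synthesis were higher in liver, 12 of them at least 4-fold. Cyp7a1, the rate-limiting enzyme of the classic route, read 922, 968 and 1368 in liver and 7, 9.74 and 13 in duodenum, at least 53.4-fold higher in liver (adjusted p = 9.8e-09). Cyp7b1, the hydroxylase of the alternative route, read 4394, 3679.8 and 3938 in liver and 25.2, 23.7 and 26.6 in duodenum (159-fold, log2 difference 7.31, SE 0.11, adjusted p = 3.9e-11). Transport of bile acids was split by direction and segment. Slc10a1, which takes bile acids from blood into hepatocytes, gave 7211, 7833 and 6869.7 in liver and 10.1, 7.44 and 8.38 in duodenum (at least 365-fold, adjusted p = 3.4e-11), and Abcb11, the pump into bile, gave 1401, 1323 and 1072 and 0.834, 4.46 and 1.45 (at least 62.9-fold, adjusted p = 1.9e-07). Both subunits of the basolateral exporter were on the intestinal side: Slc51a read 8.76, 10.4 and 5.48 in liver and 826, 582 and 705 in duodenum (at least 34.9-fold, adjusted p = 1.9e-08), and Slc51b was at least 19.6-fold higher in duodenum (adjusted p = 1.4e-05). Slc10a2 and Fabp6, the uptake carrier and the binding protein known from ileum, were under 20 on all 6 arrays.

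The cytochrome P450 list was mixed, with 21 of 35 genes higher in liver, 8 higher in duodenum and 6 not called. Cyp2d9, a steroid hydroxylase known for its male pattern, stood at 9983, 9874 and 9171 in liver and 28.6, 25.9 and 26.5 in duodenum, 359-fold higher in liver (log2 difference 8.49, SE 0.09, adjusted p = 2.7e-11). Cyp2e1, which oxidizes ethanol, read 11660.2, 11489 and 11401 in liver and 24.3, 56.5 and 35.6 in duodenum (315-fold, log2 difference 8.30, SE 0.24, adjusted p = 2.6e-09), and Cyp1a2, which oxidizes aromatic amines, read 2789, 2559 and 2565 and 0.943, 0.756 and 1.01 (at least 132-fold, adjusted p = 1.1e-10). On the duodenal side Cyp2b10, an inducible drug-metabolizing form, had signals of 110.3, 77.2 and 133 in liver and 3634, 3803 and 4043 in duodenum (36.7-fold, log2 difference -5.20, SE 0.17, adjusted p = 5.9e-09). Cyp2s1 was at least 23.2-fold higher in duodenum (adjusted p = 3.7e-09).

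Within the Cyp2c cluster of chromosome 19 the tissue changed along the gene order. This and the other clusters described here were picked after their values were seen, and near-identical copies can share probes, so levels of single members are uncertain. The first genes of the cluster were intestinal: Cyp2c55 read 29.7, 29 and 40.2 in liver and 2729, 1992 and 2348 in duodenum (71.7-fold, log2 difference -6.16, SE 0.16, adjusted p = 1.1e-09), and Cyp2c65 read 0.327, 1.51 and 7.47 and 4913, 5052 and 5323 (at least 255-fold, adjusted p = 2.1e-06). The 4 genes at its far end, Cyp2c37, Cyp2c54, Cyp2c50 and Cyp2c70, were all higher in liver, from at least 96.3-fold for Cyp2c37 (adjusted p = 7.8e-11) to at least 314-fold for Cyp2c50 (adjusted p = 2.2e-06). Between them, Cyp2c38 and Cyp2c68 were higher in liver, at 6.4-fold (log2 difference 2.68, SE 0.15, adjusted p = 2.9e-07) and 4.18-fold (log2 difference 2.06, SE 0.15, adjusted p = 2.0e-06), with Cyp2c68 still at 1191, 905 and 921 in duodenum. Cyp2c29 in the same stretch was bright in both, at means of 4450 in liver and 2930 in duodenum (log2 difference 0.60, adjusted p = 2.0e-04). Its sign changed in a fit over all 24 arrays with station as a term. Cyp2c39, also there, was not called (adjusted p = 0.014). Cyp2c66, Cyp2c67, Cyp2c40 and Cyp2c69 had no probe set of their own.

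Conjugating enzymes, which attach sulfate, glucuronate or glutathione to foreign compounds, were called in both directions, with 16 of 30 higher in liver and 12 in duodenum. Of these 12, 7 were called when signals under 20 were set to 20, 5 without the trend in limma's variance prior, 6 after median centring, 7 without liver replicate 3 and 5 in a fit over all 24 arrays with station as a term. Sult2a8, a sulfotransferase of bile acids in mouse, read 5219.9, 5044 and 5739 in liver and 1.08, 0.862 and 1.17 in duodenum, at least 266-fold higher in liver (adjusted p = 3.6e-11). Sult1b1 was intestinal, with 213, 190.2 and 236 in liver and 2703, 2298 and 2355 in duodenum (11.5-fold, log2 difference -3.53, SE 0.11, adjusted p = 3.7e-09). Glutathione transferases went both ways, as Gsta3 was 39.7-fold higher in liver (log2 difference 5.31, SE 0.16, adjusted p = 4.1e-09) and Gsta4 9.93-fold higher in duodenum (log2 difference -3.31, SE 0.11, adjusted p = 8.2e-09). Along the Ugt2b cluster of chromosome 5, Ugt2b1 reached 20 on the liver arrays only (6318, 6069 and 5961 against 13.5, 4.2 and 7.63, at least 306-fold, adjusted p = 7.5e-09), while its neighbour Ugt2b34 was 1.37-fold higher in duodenum (log2 difference -0.46, SE 0.09, adjusted p = 0.0023), a call that was lost without liver replicate 2 or 3.

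**Figure D3:**
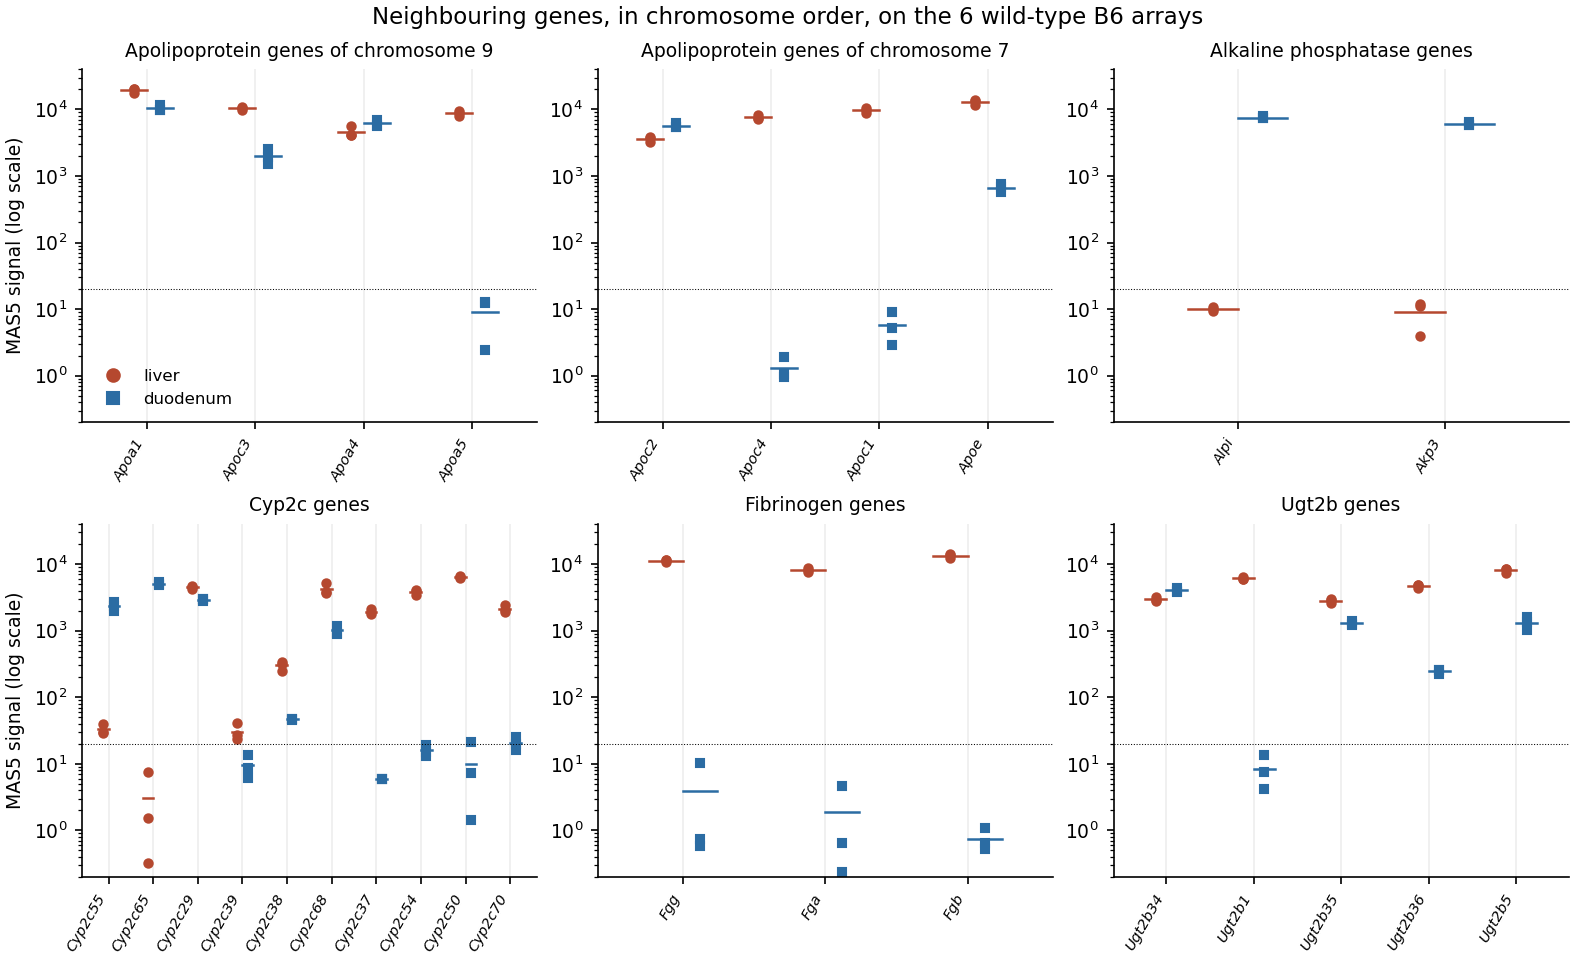
MAS5 signals (log axis) of neighbouring genes in chromosome order on the 3 liver (circles) and 3 duodenum (squares) arrays of wild-type B6 mice, with a short line at each mean and a dotted line at 20. The fibrinogen and alkaline phosphatase neighbours lie on 1 side each, and the apolipoprotein, Cyp2c and Ugt2b clusters hold genes with opposite or unequal tissue differences.

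Of 17 measured genes of apolipoproteins and lipoprotein assembly, 13 were higher in liver, 3 in duodenum and 1 was not called. The apolipoprotein cluster of chromosome 9 showed 4 neighbours with 4 patterns. Apoa1, the main protein of high density lipoprotein, read 19918, 20352 and 17485 in liver and 11709, 9783 and 9819.7 in duodenum, only 1.85-fold higher in liver (log2 difference 0.89, SE 0.10, adjusted p = 7.9e-05). Apoc3, an inhibitor of triglyceride clearance, was 5.33-fold higher in liver (log2 difference 2.42, SE 0.16, adjusted p = 8.6e-07). Apoa4, made by enterocytes during fat absorption, gave 4148, 5629.8 and 4140.2 in liver and 7011, 5635 and 5853 in duodenum and was not called (log2 difference -0.42, SE 0.13, adjusted p = 0.036), although it passed without liver replicate 2. Apoa5 read 8761, 9436 and 8063 in liver and 12.8, 12.2 and 2.47 in duodenum, at least 437-fold higher in liver (adjusted p = 1.3e-07). The cluster on chromosome 7 was divided too. Apoc2, the activator of lipoprotein lipase, was 1.58-fold higher in duodenum (log2 difference -0.66, SE 0.10, adjusted p = 4.2e-04), and its neighbours Apoc4 and Apoc1 were at least 380.1-fold (adjusted p = 1.9e-10) and at least 481-fold (adjusted p = 3.6e-09) higher in liver, with all their duodenal signals under 20. Mttp, which loads triglyceride onto apolipoprotein B in both organs, read 1349.5, 1429.8 and 1598 in liver and 4062, 4824 and 5033 in duodenum, 3.17-fold higher in duodenum (log2 difference -1.67, SE 0.10, adjusted p = 7.2e-07), while Apob itself was 2.79-fold higher in liver (log2 difference 1.48, SE 0.14, adjusted p = 1.6e-05).

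Genes that take up and re-esterify dietary fat leaned to duodenum, with 8 of 15 higher there, 4 higher in liver and 3 not called. Mogat2, the acyltransferase of the intestinal triglyceride route, read 0.929, 1.2 and 7.32 in liver and 1917, 1633 and 1730.0 in duodenum, at least 87.8-fold higher in duodenum (adjusted p = 8.1e-07). Npc1l1, the intestinal cholesterol carrier that ezetimibe blocks, read 2.35, 11.1 and 18.1 in liver and 1157, 839.6 and 980.3 in duodenum (at least 49.2-fold, adjusted p = 6.8e-06). Dgat1 was 9.27-fold higher in duodenum (log2 difference -3.21, SE 0.12, adjusted p = 1.9e-08) and Dgat2, the other enzyme of that step, 1.61-fold higher in liver (log2 difference 0.68, SE 0.11, adjusted p = 6.7e-04). The fatty acid binding proteins split likewise. Fabp2, the intestinal form, was 4.05-fold higher in duodenum (log2 difference -2.02, SE 0.10, adjusted p = 1.1e-07) with liver signals of 1705, 2063 and 1876, and Fabp1, the liver form, read 17021, 18769 and 15890.1 in liver and 10154, 8912 and 8901 in duodenum (1.85-fold, log2 difference 0.89, SE 0.10, adjusted p = 4.8e-05).

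Fatty acid oxidation was a liver group, with 16 of 19 genes higher in liver, 1 in duodenum and 2 not called, and so was the peroxisome, with 18 of 21 higher in liver and 1 in duodenum. The exception in the first list was Oxct1, the enzyme that lets tissues burn ketone bodies and that hepatocytes lack: 44.3, 38.1 and 44.5 in liver, 1455, 1274 and 1459.8 in duodenum and 33-fold higher in duodenum (log2 difference -5.05, SE 0.11, adjusted p = 5.0e-10). Cpt1a, the gate for fatty acids into mitochondria, was 3.53-fold higher in liver (log2 difference 1.82, SE 0.12, adjusted p = 9.1e-07). Acaa1b, a peroxisomal thiolase, was 14.2-fold higher in liver (log2 difference 3.83, SE 0.10, adjusted p = 1.8e-09). Cholesterol and fatty acid synthesis showed no lean, with 4 of 21 genes higher in liver and 5 in duodenum (3 without liver replicate 1 or without liver replicate 2), shares near those over all genes. Scd1, the stearoyl desaturase, was the exception in size, at 12512, 12171 and 10697 in liver and 52, 146 and 106 in duodenum (126-fold, log2 difference 6.98, SE 0.30, adjusted p = 3.7e-08).

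On the duodenal side the brush border was the counterpart of the plasma proteins. Of 18 measured brush border hydrolases 16 were higher in duodenum and none in liver, and all 18 genes of the brush border cytoskeleton were higher in duodenum, with median log2 differences of -4.76 and -7.04. Alpi, the intestinal alkaline phosphatase, read 10.9, 9.26 and 10.1 in liver and 7896, 7326 and 7318 in duodenum, at least 375-fold higher in duodenum (adjusted p = 2.7e-11). Its neighbour on chromosome 1, Akp3, another intestinal alkaline phosphatase, read 3.99, 11.9 and 11.3 and 6381, 5789 and 5771 (at least 299-fold, adjusted p = 1.2e-08). Vil1, the actin bundler of microvilli, read 2.6, 12 and 1.42 in liver and 3666, 3258 and 3308 in duodenum (at least 170.3-fold, adjusted p = 5.6e-07), and Ezr, which anchors actin to the membrane, read 33.8, 36.4 and 48.8 and 2317, 2109 and 2206 (56.4-fold, log2 difference -5.82, SE 0.14, adjusted p = 7.5e-10). Lct, lactase, varied more between duodenum arrays, at 3879, 2034 and 2279.7, and was under 20 on all liver arrays (at least 131-fold, adjusted p = 2.1e-09). Dpp4, a peptidase that hepatocytes also carry on their bile face, was not called, at 646, 621 and 649 in liver and 1162, 689 and 813 in duodenum (log2 difference -0.44, SE 0.16, adjusted p = 0.062).

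The Lct promoter is shown as a window from the duodenal side (chr1:128328269-128328568, minus strand, 300 bases, RefSeq GRCm38.p6). Capitals mark the match to TTTATG, letters taken here for CDX factors of intestine, on the strand opposite to the gene. The match starts 31 bases before the gene start, and binding of CDX factors to it was not tested.
Lct: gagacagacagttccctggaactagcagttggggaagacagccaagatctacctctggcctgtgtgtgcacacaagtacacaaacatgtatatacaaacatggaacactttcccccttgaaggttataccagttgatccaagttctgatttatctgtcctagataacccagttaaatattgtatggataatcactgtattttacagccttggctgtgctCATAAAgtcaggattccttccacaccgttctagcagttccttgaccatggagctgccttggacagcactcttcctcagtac

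These letters were in 8.40% of the windows of genes at least 4-fold higher in duodenum, in 9.59% of those at least 4-fold higher in liver and in 8.13% of those of all genes with a probe set, so the duodenal share was below the liver share. For AGATAA (or TTATCT), core letters of GATA sites, the shares were 9.71%, 10.96% and 8.13%.

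Nutrient transporters of the small intestine followed the brush border, with 21 of 27 higher in duodenum, 1 in liver and 5 not called. Slc5a1, the sodium-coupled glucose carrier, read 18.4, 32.5 and 22.8 in liver and 5094, 3677 and 4277 in duodenum, at least 176-fold higher in duodenum (adjusted p = 1.4e-09). Slc6a19, the carrier of neutral amino acids, was at least 63.2-fold higher (adjusted p = 1.1e-06), and Slc15a1, the carrier of small peptides, at least 17.6-fold higher (adjusted p = 3.6e-05). Calcium absorption was duodenal as well. S100g, the calcium-ferrying protein calbindin of enterocytes, read 2.27, 0.69 and 0.564 in liver and 7792, 7714 and 7674 in duodenum (at least 386-fold, adjusted p = 6.0e-09), and Atp2b1, a calcium pump, was 18.9-fold higher in duodenum (log2 difference -4.24, SE 0.11, adjusted p = 1.0e-09). Slc2a2, the glucose carrier of hepatocytes and of the basolateral enterocyte membrane, was not called, with 3292, 2965 and 2644 in liver and 3732, 2873 and 2813 in duodenum (log2 difference -0.07, SE 0.13, adjusted p = 0.71). The gene on the liver side was Slc23a1, a vitamin C carrier, with 273, 247 and 297 in liver and 12.3, 12.8 and 12.3 in duodenum (at least 13.6-fold, adjusted p = 2.5e-08).

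Genes of iron handling were divided by function rather than leaning to 1 organ. Of 24 genes of iron uptake, export and storage, 10 were higher in liver and 9 in duodenum, and of 24 genes that control iron and hepcidin, 8 were higher in each. Hfe, on chromosome 13, read 674, 685 and 691 in liver and 92.9, 76.6 and 98.7 in duodenum. The liver values lay within a narrow band and well apart from the duodenal ones, 7.69-fold higher in liver (log2 difference 2.94, SE 0.12, adjusted p = 2.7e-08). Tfr2, the transferrin receptor that senses iron with Hfe, read 1831, 1960.3 and 1756 in liver and 24.6, 10.4 and 14.5 in duodenum (at least 86.2-fold, adjusted p = 1.5e-08). Hjv, hemojuvelin, the coreceptor for bone morphogenetic proteins, read 578, 663 and 640.4 and 12.9, 10.8 and 1.78 (at least 31.3-fold, adjusted p = 1.2e-05), and Tmprss6, the protease that cleaves hemojuvelin, read 1838, 1559 and 1654 and 13.7, 6.91 and 18.3 (at least 84-fold, adjusted p = 3.1e-08). Bmp6, a ligand of that pathway, was dim in both, at 46, 43.2 and 47.4 in liver and 20.7, 9.83 and 18.8 in duodenum (at least 2.25-fold, adjusted p = 0.0062), and it was no longer called without duodenum replicate 2 or without any of the liver replicates. By contrast, general targets of the pathway were brighter in duodenum: Id1 was 4.86-fold higher there (log2 difference -2.28, SE 0.16, adjusted p = 1.7e-06) and Smad7 2.43-fold higher (log2 difference -1.28, SE 0.17, adjusted p = 2.0e-04).

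Hamp, the hepcidin gene itself, had signals of 9026, 7825 and 8308 in liver and 12.9, 16.3 and 14.7 in duodenum, with no overlap and at least 419-fold higher in liver (adjusted p = 3.0e-11). Mice carry another copy near it on chromosome 7, Hamp2, which read 3307, 2393 and 2143 in liver and 28.7, 12.5 and 16.3 in duodenum (at least 114-fold, adjusted p = 1.9e-08). The promoter windows of the pair are shown because the copies are so alike: over the 297 bases that align without gaps, 276 (92.9%) were identical. Both are on the minus strand (RefSeq GRCm38.p6, chr7:30943980-30944279 for Hamp and chr7:30924132-30924431 for Hamp2), and capitals mark TTATCT, the opposite strand of AGATAA, which starts 128 bases before the gene start of Hamp and 125 bases before that of Hamp2. Copies this close can share probes, so their separate levels are uncertain.
Hamp: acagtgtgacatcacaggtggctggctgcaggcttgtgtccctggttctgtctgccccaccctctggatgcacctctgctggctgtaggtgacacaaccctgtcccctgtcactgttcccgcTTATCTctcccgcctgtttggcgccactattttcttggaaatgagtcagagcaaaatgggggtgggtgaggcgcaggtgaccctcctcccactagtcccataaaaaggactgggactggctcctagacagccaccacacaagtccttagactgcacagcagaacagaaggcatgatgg
Hamp2: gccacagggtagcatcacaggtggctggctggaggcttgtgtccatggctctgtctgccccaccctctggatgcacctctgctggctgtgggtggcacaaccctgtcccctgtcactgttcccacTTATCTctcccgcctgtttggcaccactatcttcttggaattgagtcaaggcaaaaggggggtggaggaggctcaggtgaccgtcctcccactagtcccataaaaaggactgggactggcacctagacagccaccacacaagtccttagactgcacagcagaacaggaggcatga

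Iron enters enterocytes after reduction at the brush border, and those genes were duodenal. Cybrd1, the ferric reductase Dcytb, read 5.02, 13.5 and 7.06 in liver and 216, 571 and 549 in duodenum, with duodenum replicate 1 well below the other 2 arrays (at least 20.4-fold, adjusted p = 3.0e-06). Slc11a2, the ferrous iron importer DMT1, differed less, at 81.2, 72.3 and 59.8 and 147, 203 and 235 (2.72-fold, log2 difference -1.44, SE 0.20, adjusted p = 2.2e-04). Heph, the copper oxidase that works with the exporter, read 9.02, 15.6 and 20.9 in liver and 2379, 1999 and 2003 in duodenum (at least 105-fold, adjusted p = 1.0e-08). Slc40a1, ferroportin, was bright in both, with 1199, 1238 and 959 in liver and 4369, 4681 and 4518 in duodenum, 4.02-fold higher in duodenum (log2 difference -2.01, SE 0.11, adjusted p = 1.9e-07). Slc46a1, a folate carrier that can also move heme, was 8.21-fold higher in duodenum (log2 difference -3.04, SE 0.13, adjusted p = 4.2e-08), and the transferrin receptor Tfrc 3.38-fold higher (log2 difference -1.76, SE 0.19, adjusted p = 5.0e-05). Fth1, the ferritin heavy chain, did not pass the test, at 9096, 8951 and 8389.6 in liver and 10124, 8619.9 and 8239 in duodenum (log2 difference -0.02, SE 0.10, adjusted p = 0.88).

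Carriers that keep iron and heme in plasma were again on the liver side. Hpx, hemopexin, which binds free heme, read 11636, 11674 and 10065 in liver and 3.98, 4.05 and 0.717 in duodenum (at least 555-fold, adjusted p = 5.3e-08), and Cp, the plasma copper oxidase, was 135-fold higher in liver (log2 difference 7.08, SE 0.12, adjusted p = 9.1e-11). Of 12 genes of heme synthesis and breakdown, 9 were higher in liver and none in duodenum. Alas1, the first enzyme of the housekeeping route, read 2484, 1980.3 and 2784 in liver and 672, 573 and 764 in duodenum (3.6-fold, log2 difference 1.85, SE 0.14, adjusted p = 3.1e-06). Alas2, the form of red cell precursors, read 684, 510.0 and 746 and 19.4, 29 and 26 (at least 25.8-fold, adjusted p = 3.2e-08). Hba-a1 was under 20 on all 6 arrays, and the part of blood in the Alas2 difference was not tested.

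**Figure D4:**
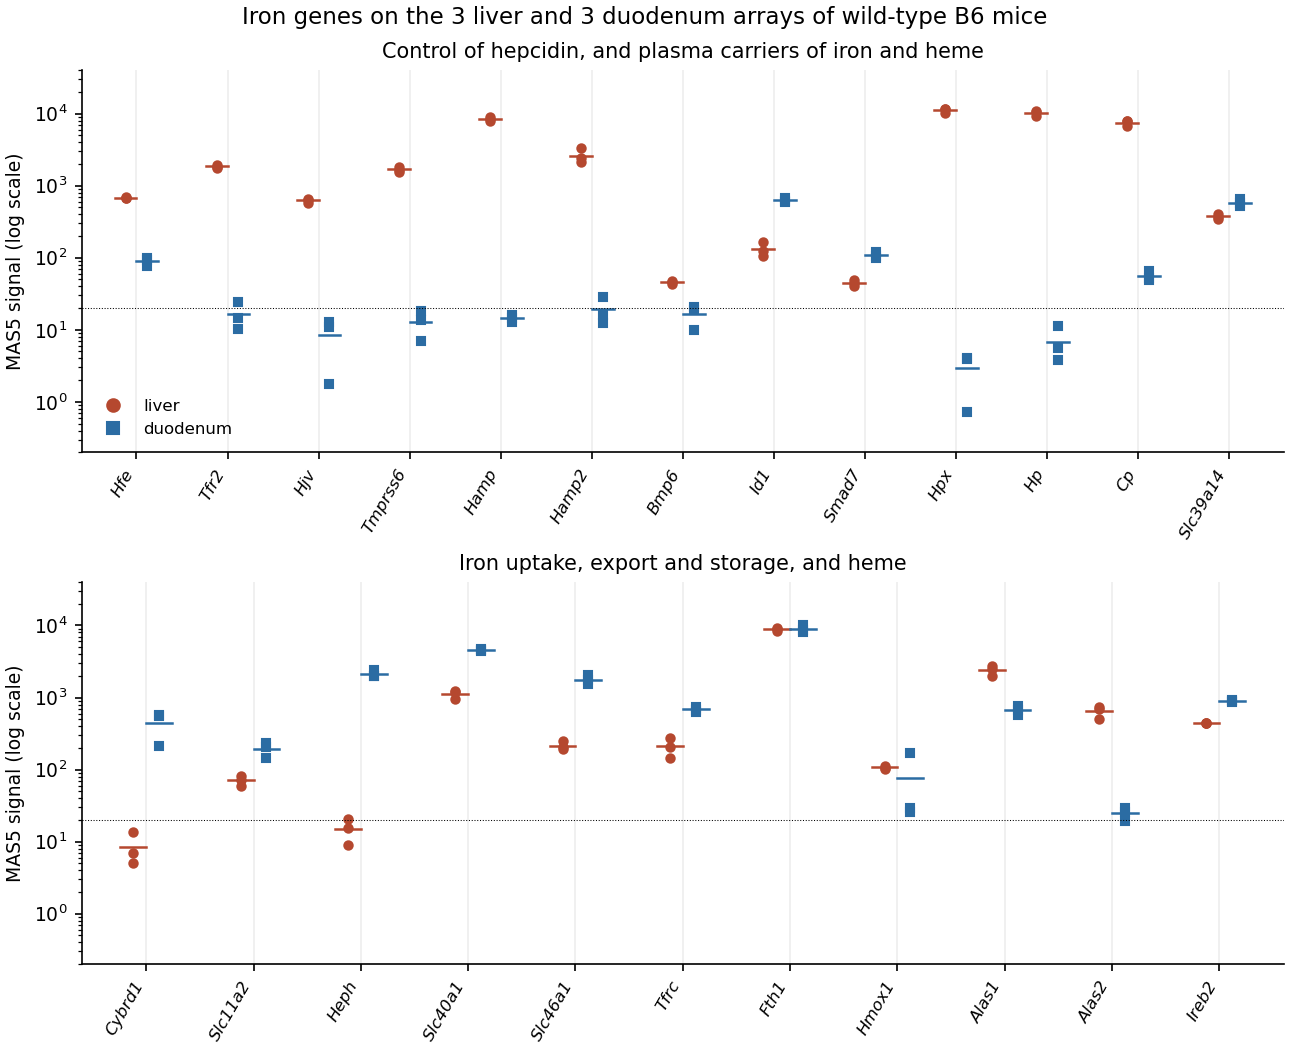
MAS5 signals (log axis) of genes of hepcidin control and plasma carriers (upper panel) and of iron uptake, export, storage and heme (lower panel) on the 3 liver (circles) and 3 duodenum (squares) arrays of wild-type B6 mice, with a short line at each mean and a dotted line at 20. Hamp, Hamp2, Tfr2, Hjv and Tmprss6 are high in liver only, Cybrd1 and Heph in duodenum only, and Fth1 overlaps.

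Vitamin A handling used different binding proteins in the 2 organs, with 9 of 17 genes higher in liver and 6 in duodenum. Rbp4, the plasma retinol carrier, read 12135, 12788 and 10711 in liver and 51.1, 70.1 and 59.1 in duodenum (199-fold, log2 difference 7.64, SE 0.12, adjusted p = 7.5e-11). Rbp2, the retinol binding protein inside enterocytes, read 0.781, 1.1 and 4.85 and 2687, 2216 and 1871, at least 112-fold higher in duodenum (adjusted p = 2.0e-07).

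Among transcription factors known in liver, 16 of 21 were higher in liver and 1 in duodenum, and among those known in intestine 19 of 25 were higher in duodenum and none in liver. Cebpa, which drives hepatocyte genes, read 1340.1, 1227 and 1275 in liver and 114, 99.3 and 126 in duodenum (11.4-fold, log2 difference 3.51, SE 0.11, adjusted p = 4.6e-09), and Foxa2, a pioneer factor of endoderm, was 4.91-fold higher in liver (log2 difference 2.30, SE 0.16, adjusted p = 1.7e-06). Cdx2, the factor that sets intestinal identity, read 9.85, 12.3 and 1.65 in liver and 400.5, 294 and 376 in duodenum (at least 17.7-fold, adjusted p = 3.5e-05). Pdx1, known in duodenum and pancreas, read 2.71, 2.27 and 1.89 and 367, 468 and 359 (at least 19.8-fold, adjusted p = 1.8e-08). Klf4, a factor of differentiated epithelium, had closely matching duodenal signals of 2206, 2214 and 2210.1, against 23.2, 27.3 and 29 in liver (83.9-fold, log2 difference -6.39, SE 0.11, adjusted p = 1.1e-10). Relatives within a family differed. Hnf4a, shared by both epithelia, read 2519, 2628 and 2319 in liver and 2003, 1772 and 2149 in duodenum and was not called (log2 difference 0.34, SE 0.10, adjusted p = 0.02), while Hnf4g read 5.54, 2.43 and 3.64 and 799, 504 and 298, at least 24.7-fold higher in duodenum (adjusted p = 3.2e-07). In the Onecut family, Onecut1 was higher in liver, at 117, 40.7 and 59 against 9.93, 2.18 and 1.19 (at least 3.28-fold, adjusted p = 0.0011), and Onecut2 was the member of the liver list that was higher in duodenum (2.97-fold, log2 difference -1.57, SE 0.11, adjusted p = 1.9e-06).

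The secretory cells of the intestinal epithelium gave the next duodenal groups. Of 18 goblet cell and mucus genes 15 were higher in duodenum, of 12 Paneth cell genes 9, and of 20 enteroendocrine genes 14, with none higher in liver in any of these lists. Muc2, the gel-forming mucin, read 0.701, 0.527 and 2.17 in liver and 3045, 2290.2 and 2855 in duodenum (at least 136-fold, adjusted p = 2.0e-08), and Muc3, a membrane mucin of the brush border, was among the widest bounds with 6332, 5072 and 4611 in duodenum (at least 265-fold, adjusted p = 5.5e-09). Retnlb, a goblet cell gene of the large bowel, was under 20 on all 6 arrays. Lyz1, the lysozyme of Paneth cells, read 861, 1072 and 751 in liver and 7272, 6929.6 and 7421 in duodenum (8.14-fold, log2 difference -3.02, SE 0.12, adjusted p = 2.6e-08), and Itln1, a lectin, was at least 177-fold higher in duodenum (adjusted p = 5.4e-09). Hormone genes of the upper gut were higher in duodenum as well. Gip, the incretin of the upper intestine, read 2.77, 0.89 and 11.6 in liver and 774, 540.1 and 570.3 in duodenum (at least 31-fold, adjusted p = 1.5e-05), Cck was at least 11.3-fold higher in duodenum (adjusted p = 3.2e-06) and Sct, secretin, at least 13.2-fold higher (adjusted p = 1.3e-06).

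Genes of pancreatic acinar cells, which make digestive enzymes and are not part of the duodenal wall, were also bright on the duodenum arrays. Of 21 measured genes 18 were higher in duodenum and none in liver, with a median log2 difference of -7.54. Summed over the list, the signal was 85920 on duodenum replicate 1, 69493 on replicate 2 and 22463 on replicate 3, against 375 to 528 on the liver arrays. On the D2 duodenum arrays the sum was 69846, 44411 and 96722. Cpa1, a carboxypeptidase, read 5295, 4449 and 844 in duodenum and 18, 8.12 and 2.05 in liver (at least 135-fold, adjusted p = 1.4e-05), and at least 243-fold without duodenum replicate 3. Ctrb1, chymotrypsinogen, read 7171, 5734 and 1239 in duodenum and 10.2, 19.9 and 1.65 in liver (at least 185-fold, adjusted p = 1.6e-05), and at least 321-fold without duodenum replicate 3. Duodenum replicate 3 was the lowest of the 3 duodenum arrays for 20 of the 21 genes, against 30.0% of all genes, and its median level was 0.18 times the mean of the other two. Without replicate 3 the count was 19 of 21, without replicate 1 it was 17 and without replicate 2 it was 16. Reg1, known from acinar cells and from regenerating gut epithelium, varied less between these arrays. It read 8789, 8155 and 7427 in duodenum and 6.69, 1.05 and 12.8 in liver (at least 405-fold, adjusted p = 9.0e-07). How far pancreas tissue accounts for these levels was not tested.

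Dividing and stem cells were another duodenal group. Of 29 cell cycle genes 25 were higher in duodenum and none in liver, and of 15 crypt and Wnt genes 10 were higher in duodenum, a count that was 5 when signals under 20 were set to 20. Mki67, a marker of dividing cells, read 19.9, 10.6 and 17.7 in liver and 398, 561 and 498 in duodenum (at least 24-fold, adjusted p = 1.2e-07). Olfm4, made in the crypt base, read 1.52, 1.14 and 0.784 and 1633, 2449 and 2240.0 (at least 104-fold, adjusted p = 1.2e-09). Lgr5, the receptor that marks intestinal stem cells and also hepatocytes near central veins, was not called, at 44.3, 40.2 and 59.95 in liver and 93, 68.5 and 72.3 in duodenum (log2 difference -0.70, SE 0.22, adjusted p = 0.031). Tk1 was not called either, at 189, 145 and 164 in liver and 97.8, 142 and 132 in duodenum (log2 difference 0.43, SE 0.17, adjusted p = 0.082). On the crypt and cell cycle lists duodenum replicate 1 had the lowest sum of the 3 duodenum arrays (4675 against 7879 and 8180 for crypt genes, 6034 against 7137 and 7846 for the cell cycle).

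The muscle coat and the connective tissue of the gut followed. Of 18 smooth muscle genes 17 were higher in duodenum and none in liver. Acta2, smooth muscle actin, read 44.6, 44.8 and 47 in liver and 2154, 2640.2 and 2317 in duodenum (52-fold, log2 difference -5.70, SE 0.11, adjusted p = 1.3e-10), and Myh11, smooth muscle myosin, read 1.93, 4.6 and 9.21 and 594, 521 and 498 (at least 26.8-fold, adjusted p = 1.1e-06). Among 20 fibroblast and matrix genes 13 were higher in duodenum and 3 in liver. Col3a1, a fibrillar collagen, was 5.97-fold higher in duodenum (log2 difference -2.58, SE 0.10, adjusted p = 1.9e-08), while Fn1, fibronectin, which hepatocytes release into plasma, read 5333, 4438 and 4380.3 in liver and 222, 231 and 266 in duodenum (19.7-fold, log2 difference 4.30, SE 0.11, adjusted p = 9.8e-10). Of 12 genes of enteric nerve and glia only 3 were called, all higher in duodenum.

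Cells of the immune system differed in kind between the organs. Of 21 genes of T, NK and intraepithelial lymphocytes 14 were higher in duodenum and none in liver. Gzma, a protease of cytotoxic granules, read 23.5, 21.6 and 17.4 in liver and 2125, 1674 and 1743 in duodenum (at least 84.9-fold, adjusted p = 5.2e-10). Ccl25, the chemokine that draws lymphocytes to small intestine, read 24.7, 19.7 and 27.7 and 3612, 2909 and 3026 (at least 133-fold, adjusted p = 2.7e-10). Of 16 B and plasma cell genes 7 were higher in duodenum, and 4 when duodenum replicate 1, 2 or 3 was left out in turn. Plasma cell products were bright: Igha, the heavy chain of IgA, read 101, 122 and 81.4 in liver and 9595, 8133 and 8289.7 in duodenum (86.5-fold, log2 difference -6.43, SE 0.14, adjusted p = 4.0e-10), and Jchain, which joins IgA into dimers, read 36.3, 29.99 and 30.9 and 6195, 5694 and 5577 (180.2-fold, log2 difference -7.49, SE 0.10, adjusted p = 3.6e-11). Cd79a, part of the B cell receptor, was near 20 in both, at 12.5, 23.5 and 15.8 in liver and 30.4, 16.1 and 26 in duodenum, and was not called (adjusted p = 0.43). MHC class II genes were mostly duodenal, with 10 of 17 genes of antigen presentation higher there and 3 in liver. Cd74, the invariant chain, was 6.06-fold higher in duodenum (log2 difference -2.60, SE 0.17, adjusted p = 8.3e-07), and B2m, the light chain of class I, 1.6-fold higher in liver (log2 difference 0.67, SE 0.10, adjusted p = 3.7e-04). H2-Q10, a class I gene that liver secretes, read 6309.7, 6798 and 6156 in liver and 27.8, 30.4 and 38.7 in duodenum (201-fold, log2 difference 7.65, SE 0.13, adjusted p = 7.9e-11). Ada, adenosine deaminase, was the widest duodenal difference measured on both sides, with 39.4, 29.4 and 39.3 in liver and 7526, 7201 and 7218 in duodenum (205-fold, log2 difference -7.68, SE 0.12, adjusted p = 6.9e-11).

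Macrophage and sinusoid genes were on the liver side. Of 18 macrophage and Kupffer cell genes 13 were higher in liver and 2 in duodenum, and of 17 endothelial genes 12 and 1, although a fit over all 24 arrays with station as a term left 7 called higher in liver in each list. Clec4f, a lectin of mouse Kupffer cells, read 539, 607 and 473 in liver and 7.08, 0.662 and 1.02 in duodenum (at least 26.8-fold, adjusted p = 8.2e-06), and Cd5l read 839.9, 1011 and 700.4 and 3.54, 4.46 and 5.18 (at least 42-fold, adjusted p = 2.6e-09). The general macrophage lysozyme Lyz2 went the other way, 2.51-fold higher in duodenum (log2 difference -1.33, SE 0.12, adjusted p = 1.2e-05). Stab2, a scavenger receptor of sinusoidal endothelium, read 368, 379 and 425 in liver and 20.6, 9.07 and 18.5 in duodenum (at least 19.3-fold, adjusted p = 5.3e-07), and Clec4g, a lectin of the same cells, 883, 702 and 705 and 12, 11.9 and 11.9 (at least 37.9-fold, adjusted p = 9.9e-10).

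Both organs are epithelia, and their junction and keratin genes separated them. Of 29 such genes 18 were higher in duodenum and 6 in liver. Cdh17, the intestinal cadherin, read 0.501, 0.853 and 0.976 in liver and 4077, 3604 and 3435 in duodenum (at least 185-fold, adjusted p = 3.6e-10), and Krt20, a keratin of differentiated enterocytes, read 2.88, 13.5 and 1.35 and 5102, 4198 and 4180.3 (at least 224-fold, adjusted p = 6.9e-07). Cldn1, a tight junction protein, was on the liver side, at 635, 648 and 613 against 5.74, 13.9 and 25.5 (at least 29.1-fold, adjusted p = 2.7e-06), and so was the gap junction gene Gjb1 (8.1-fold, log2 difference 3.02, SE 0.17, adjusted p = 3.9e-07). Krt18, found in both epithelia, was not called, at 1787, 2362 and 2305 in liver and 1145, 1722 and 1779 in duodenum (log2 difference 0.49, SE 0.17, adjusted p = 0.05).

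Hormone and clock genes added smaller liver groups. Of 17 genes of the growth hormone axis 14 were higher in liver and 2 in duodenum. Igf1, the growth factor that liver supplies to blood, read 2487, 3365 and 2693 in liver and 98.6, 99 and 67.8 in duodenum (32.4-fold, log2 difference 5.02, SE 0.16, adjusted p = 6.0e-09), and the receptor Ghr was 14.2-fold higher in liver (log2 difference 3.83, SE 0.13, adjusted p = 6.9e-09). Of 18 clock genes 8 were higher in liver and none in duodenum. Dbp, an output gene of the clock, read 511, 745 and 957 in liver and 67.5, 65.6 and 79 in duodenum (10.1-fold, log2 difference 3.34, SE 0.20, adjusted p = 5.3e-07), whereas Arntl, a core clock gene, was not called (log2 difference -0.51, SE 0.14, adjusted p = 0.017).

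Ribosomal protein genes, which every cell uses, differed little. Of 20 cytosolic ribosomal protein genes 5 were higher in duodenum, none in liver and 15 not called, with differences from -0.73 to 0.31 on the log2 scale, and of 25 respiratory chain genes 6 were higher in liver, 2 in duodenum and 17 not called. Both counts moved with the scaling. Median centring gave 0 ribosomal genes higher in duodenum and 19 respiratory genes higher in liver, and quantile normalization gave 14 and 1. Leaving out 1 array moved them as well: the ribosomal count was 2 without duodenum replicate 2, 3 without duodenum replicate 3 and 3 without liver replicate 1, and the respiratory count was 2 without duodenum replicate 2 and 3 without duodenum replicate 3 or any of the liver replicates. Housekeeping references gave 1 of 11 higher in liver and 3 in duodenum. In the TCA cycle, 4 of 17 genes were higher in liver and 5 in duodenum, and the enzymes were unevenly set. Cs, citrate synthase, read 469.7, 443 and 484 in liver and 3198, 3067 and 3054 in duodenum (6.67-fold, log2 difference -2.74, SE 0.08, adjusted p = 2.7e-09), and Fh1, fumarase, 3753, 4696 and 4292 and 1212, 1213 and 1271, 3.43-fold higher in liver (log2 difference 1.78, SE 0.10, adjusted p = 2.2e-07).

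**Figure D5:**
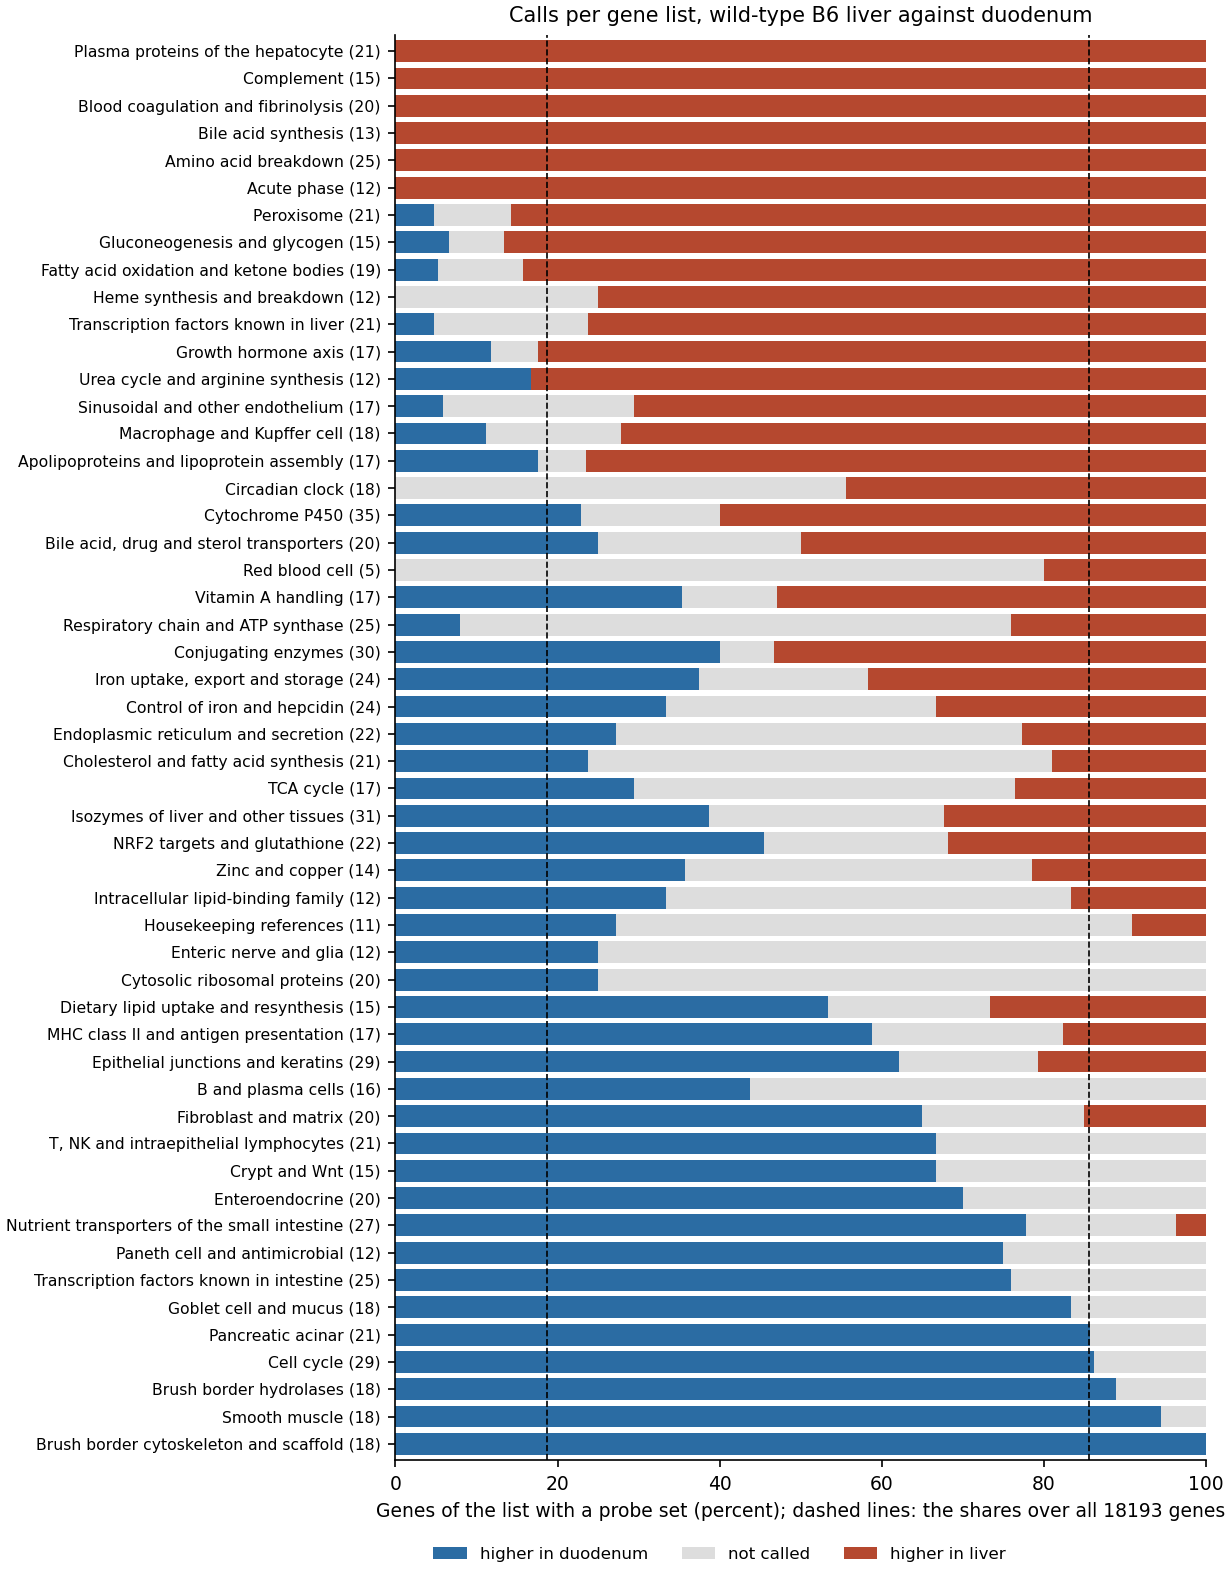
Share of the measured genes of each of the 52 lists that was called higher in duodenum (left), not called (middle) or called higher in liver (right), in percent, with the number of measured genes in brackets and dashed lines at the shares over all 18193 genes (18.7% and 14.4%). Lists run from the brush border cytoskeleton, all 18 genes higher in duodenum, to the plasma proteins, all 21 higher in liver.

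The remaining lists ran near the background or both ways. Of 14 zinc and copper genes 3 were higher in liver and 5 in duodenum, of 12 genes of the intracellular lipid-binding family 2 and 4, of 22 NRF2 and glutathione genes 7 and 10, and of 22 genes of the endoplasmic reticulum and secretion 5 and 6 (3 higher in liver when any array other than liver replicate 3 was left out). Of 20 bile acid, drug and sterol transporters 10 were higher in liver and 5 in duodenum. Gpx2, a glutathione peroxidase of gut epithelium, read 28.6, 5.98 and 9.91 in liver and 543, 1024 and 785 in duodenum (at least 33.7-fold, adjusted p = 4.3e-06). The red blood cell list had 1 of 5 genes called, Alas2.

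The 6 wild-type D2 arrays gave the same measure in mice that the B6 comparison had not used. Of the 2401 genes at least 4-fold different in B6, 2380 differed in the same direction in D2 and 2166 were also called there. The matching shares over all genes were not computed, so these counts have no background beside them. The difference between strains was tested directly, as the tissue difference of B6 minus that of D2. It passed for 189 of 45037 probe sets (0.42%), 106 of them with a more positive value in B6 and 83 with a more negative one, and 4860 probe sets had an unadjusted p under 0.05. For 55 of the 2401 genes that difference passed the test.

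Hamp2 was among the iron genes that passed the strain test. Its D2 liver mean was 13262 ± 275 (SD, n = 3), against 2614 ± 613 (SD, n = 3) in B6, and duodenum was dim in both, so that the tissue difference was smaller in B6 (strain difference -3.28 on the log2 scale, SE 0.35, adjusted p = 2.2e-04). Hamp did not pass this test, with a D2 liver mean of 5252 ± 579.7 and 8386 ± 604 in B6 (strain difference -0.66 on the log2 scale, SE 0.68, adjusted p = 0.8). Its liver mean was higher in B6, so the negative value comes from duodenum, where the B6 signals were all under 20. This test therefore does not address the liver levels of Hamp, which were not compared on their own. Slc40a1 was less duodenal in D2, with 2053 ± 251 in liver and 3526 ± 154 in duodenum (strain difference -1.22 on the log2 scale, SE 0.15, adjusted p = 8.3e-04). For Hfe the D2 means were 462 ± 45.8 in liver and 99.2 ± 5 in duodenum, and the strain difference was not called (strain difference 0.73 on the log2 scale, SE 0.16, adjusted p = 0.046). Mt2, a metallothionein (a small protein that binds zinc and copper), had opposite directions in the strains. It read 872, 501 and 999 in liver and 2294, 1226 and 1782 in duodenum of B6, 2.26-fold higher in duodenum (log2 difference -1.17, SE 0.27, adjusted p = 0.0063; not called without duodenum replicate 1 or 3 or liver replicate 1 or 2), and 3860.1 ± 639 in liver and 1494 ± 157 in duodenum of D2 (strain difference -2.54 on the log2 scale, SE 0.34, adjusted p = 0.0014).

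Several of the widest strain differences were in genes bright in 1 strain and far lower in the other. Nlrp12, an innate immune regulator, read 1294, 1409 and 1270.3 in B6 liver and 0.756, 1.3 and 2.03 in B6 duodenum (at least 66.2-fold, adjusted p = 7.2e-09), but 9.92 ± 2.4 in D2 liver (strain difference 8.23 on the log2 scale, SE 1.32, adjusted p = 0.0057). The D2 duodenum mean of Nlrp12 was also under 20 (5.57 ± 4.64), so the size of this strain difference is uncertain. Nnmt, which methylates nicotinamide, was at least 109.9-fold higher in liver in B6 (adjusted p = 7.5e-09), where its liver mean was 2353 ± 448, and its D2 liver mean was 129 ± 95.7 (strain difference 4.26 on the log2 scale, SE 0.60, adjusted p = 0.0023). St3gal4, a sialyltransferase, was 10.3-fold higher in duodenum in B6 (log2 difference -3.36, SE 0.19, adjusted p = 3.1e-07), at 3518, 2063 and 1999.7 against 225, 251 and 236 in liver, and dim in D2 duodenum at 25.4 ± 9.55 (strain difference -6.83 on the log2 scale, SE 0.32, adjusted p = 4.9e-08). Clca4a was a duodenal gene in B6, at 974, 1012 and 719, and read 46.8 ± 14.5 in D2 duodenum (strain difference -6.45 on the log2 scale, SE 1.11, adjusted p = 0.0093). Its liver means were under 20 in both strains (3.71 ± 5.37 in B6 and 7.08 ± 2.48 in D2). Ctrc, a chymotrypsin of acinar cells, read 147, 78.1 and 15.7 in B6 duodenum and 4259.9 ± 1909.9 in D2 duodenum (strain difference 6.04 on the log2 scale, SE 0.89, adjusted p = 0.0034). This gene is on the acinar list, whose sum varied between the duodenum arrays of both strains as given above.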

How the data were processed

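The deposited values were MAS5 signals, an intensity on a linear scale that the authors scaled so that each array's trimmed mean (2% off each end) is 100, per the values themselves; the MAS5 name is from the submitters' processing notes, and its version is not given in the sources used here. A deposited text file per array, the other kind of file used, gave the fluidics station and the hybridization time. Runs were set from these times, with a new run after a gap of more than an hour. The array design holds 45101 probe sets, of which 64 controls were left out. Probe sets were named by the platform annotation: 34958 have 1 gene symbol, 932 several and 9211 none, and none was named from a probe set with several. A gene was taken by its 1-symbol probe set with the highest mean log2 signal over the 6 arrays, and levels were not compared between genes.

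The log2 signals, with no pseudocount and no filter, were fitted with limma 3.58.1 (lmFit, eBayes with trend) in R 4.3.3 over the 3 liver and 3 duodenum arrays, with Benjamini-Hochberg adjustment over 45037 probe sets. A call needed an adjusted p of at most 0.01, and the 4-fold rule also a log2 difference of at least 2. Differences are liver minus duodenum. The strain test was the B6 minus D2 tissue difference over 12 wild-type arrays. The D2 calls came from a fit over the same 12 arrays. The study's methods give no test between tissues. The fit was tested on simulated data. The alternatives were other scalings, filters, pseudocounts, a dim limit, each array left out, all 24 arrays and a replicate block. The named genes were the 12 largest differences per direction measured on both sides (at least 200 in the higher tissue, 20 or more on every lower array), the 8 largest bounds per direction with the lower tissue under 20, list members, Hfe, and the 5 largest strain differences of each sign. The comparison and the 52 gene lists (946 of 1047 genes matched) were chosen with earlier results of these data known. The lists are described by counts, without a set test. Promoter windows are RefSeq's on GRCm38.p6, matched by symbol (730 of 936 liver and 1143 of 1465 duodenum genes), using the first listed window where a gene has several. Figures were drawn with matplotlib.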

Additional observations from a re-analysis of the deposited data

Results flagged for a closer look

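For 17 named genes the tissue difference of B6 mice differed from that of D2 mice by the test of that difference itself (limma on the 12 wild-type arrays, adjusted p of at most 0.01), and this is what singled them out. The values below are the B6 tissue difference minus the D2 tissue difference on the log2 scale, each group having 3 arrays, and no explanation was tested. Signals under 20 were left as they were, so the sizes are uncertain where a group was under 20.

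Among those described above, Hamp2 had a value of -3.28, Slc40a1 -1.22, Mt2 -2.54, Nlrp12 8.23, Nnmt 4.26, St3gal4 -6.83, Clca4a -6.45, Ctrc 6.04, Cyp2c55 -1.83, Cyp7b1 2.08 and Fh1 0.96. Cyp7b1 was a liver gene in both strains, with D2 liver signals of 806 ± 328 (SD, n = 3) against 4004 ± 361 (SD, n = 3) in B6.

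Values follow for Cyp2c39, Hsd3b2, Rassf4, Pla2g2a, Ugt2b38 and Serpina1b. Cyp2c39 (value -6.45) read 23.8, 40.4 and 27.5 in B6 liver and 1347 ± 275 in D2 liver, with duodenum under 20 in B6. Rassf4 (value -4.26) read 20.5, 36.5 and 15.5 in B6 liver and 522 ± 59.5 in D2 liver. Hsd3b2 (value -4.75) was a liver gene in both strains, with liver means of 169 ± 42.1 in B6 and 203 ± 42.3 in D2. Its duodenum means were 22.1 ± 7.84 in B6 and 1.27 ± 1.19 in D2, at or near the dim range. Pla2g2a (value 5.57), a secreted phospholipase of Paneth cells, read 64.3, 77.3 and 87.9 in B6 duodenum and 3114 ± 1575 in D2 duodenum. Ugt2b38 (value 4.26) read 792, 650.5 and 421 in B6 liver and 69.9 ± 16.6 in D2 liver, and its paralogs may share its probes. Serpina1b (value 2.78), an alpha 1 antitrypsin copy, was at least 661-fold higher in liver in B6 (adjusted p = 5.6e-10), and its duodenum means were 6.71 ± 2.74 in B6 and 45.4 ± 5.26 in D2.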

How the results depend on the processing

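The counts of probe sets called kept the duodenum ahead of liver in every setting run except median centring, which gave 6207 higher in liver and 4742 higher in duodenum. Without the trend in limma's variance prior the counts were 2766 and 3716. The count at least 4-fold higher in duodenum was 1535 on log2 of the signal plus 16, 1714 among probe sets of mean signal of at least 50 and 1677 with signals under 20 set to 20. Leaving out 1 array at a time gave 3782 to 4342 higher in liver and 4969 to 5940 higher in duodenum, and at least 4-fold 1536 to 1650 and 2175 to 2796. The count of probe sets whose tissue difference differed between strains was 361 on log2 of the signal plus 16 and 114 to 183 when 1 array was left out. An alternative chosen after seeing the data, all 24 arrays with station as a term, gave 3856 and 5155. Correlations of deviations from the tissue mean were 0.04, 0.002 and 0.06 for same-numbered arrays and -0.055 to 0.008 for different-numbered ones. Deviations around means of 3 arrays cannot decide whether the replicate numbers in the labels pair the samples. A fit with the number as a replicate block gave 4308 and 6062, and 183 for the strain test. Of 965 listed or named genes, 147 lost their call without the trend, 88 with signals under 20 set to 20 and 37 after median centring. No detection calls were used, so the dim limit of 20 is a choice, and the number of arrays (3 a tissue) limits the precision.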

Other observations

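Some genes with wide tissue differences were not named above. On the liver side Azgp1, a secreted glycoprotein that acts on fat, read 10663, 10708 and 9437 in liver and 22.1, 29.6 and 31.7 in duodenum (373-fold, log2 difference 8.54, SE 0.14, adjusted p = 6.9e-11). Inmt, an N-methyltransferase of indoles, read 4669, 4446 and 4154 and 50.6, 24.2 and 26.3 (139-fold, log2 difference 7.12, SE 0.23, adjusted p = 6.2e-09), and Mtarc1, an amidoxime reductase of mitochondria, 5102, 5593 and 5918 and 38.3, 31.7 and 27.3 (172-fold, log2 difference 7.43, SE 0.13, adjusted p = 9.7e-11). Ambp, the precursor of a plasma microglobulin, was 141-fold higher in liver (log2 difference 7.14, SE 0.13, adjusted p = 1.0e-10), and Apoh, a plasma glycoprotein that binds phospholipid, was at least 524-fold higher (adjusted p = 3.3e-11).

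On the duodenal side several lectins and surface proteins were higher. Lgals4, a galectin of gut epithelium, read 99.6, 108 and 84.4 in liver and 6955, 6304 and 6044 in duodenum (66.3-fold, log2 difference -6.05, SE 0.11, adjusted p = 1.1e-10), and Lgals2, another galectin, 12.6, 1.9 and 11.8 and 6586, 6769 and 5889 (at least 320.1-fold, adjusted p = 4.3e-07). Dmbt1, a secreted scavenger protein of mucosa, was at least 329-fold higher in duodenum (adjusted p = 4.5e-06), and Lypd8, which keeps bacteria off the colonic epithelium in mouse, at least 290.4-fold higher (adjusted p = 1.4e-09). Ptgr1, a reductase that inactivates prostaglandins and leukotriene B, read 33.1, 35.8 and 31.3 in liver and 2940.2, 3391 and 3543 in duodenum (98.4-fold, log2 difference -6.62, SE 0.11, adjusted p = 7.8e-11). Crip1, a LIM protein abundant in gut, was 60.7-fold higher in duodenum (log2 difference -5.92, SE 0.13, adjusted p = 4.3e-10), and Tspan13 62.8-fold higher (log2 difference -5.97, SE 0.22, adjusted p = 1.2e-08). The immunoglobulin light chain segment Igkv8-30 read 56.5, 50.5 and 33 in liver and 6499.8, 4801 and 6585 in duodenum (129.7-fold, log2 difference -7.02, SE 0.20, adjusted p = 2.2e-09), and its probes may be shared with related segments. These genes were chosen by the size of their difference, so their values describe the extremes of the comparison.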
